A study of Mus musculus with 3 samples.

Results

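Arterial endothelial cells (ECs) of the mouse ventricles were described across all measured genes at 0, 2 and 12 weeks of pressure overload. The cells were chosen by marker UMIs (unique molecular identifiers, each standing for 1 captured transcript molecule). A cell with at least 200 detected genes was taken as an EC when Pecam1, Cdh5, Kdr and Egfl7 together gave at least 3 UMIs and more than 2 times the sum of each of 3 other marker sets, which were Col1a1, Col1a2 and Pdgfra for fibroblasts (FBs), Ptprc, Tyrobp and C1qa for blood cells, and Myh11, Rgs5 and Vtn for mural cells. An EC was taken as arterial when Gja4, Gja5, Sema3g and Gkn3 together gave at least 2 UMIs and Npr3, a marker of endocardium, gave at most 1. This rule chose 227 of 6915 cells, or 227 of 2800 ECs, and the levels of its own genes in the chosen cells are therefore a description of the choice.

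Arteries carry blood from the heart at high pressure, and their endothelium keeps an identity set by flow, by Notch signaling through Dll4 and Jag1, and by transcription factors such as Sox17 and Hey1. Large coronary arteries and small arterioles differ in wall structure, and their endothelia differ in expression. Gkn3 (a gastrokine family member), Stmn2 (a microtubule-regulating stathmin) and Fbln5 (an elastic fiber component) stood for the large-artery program. Gja4 (the gap junction protein connexin 37), Nebl (a nebulin family protein) and Alpl (tissue-nonspecific alkaline phosphatase) stood for the arteriole program.

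Wild-type male C57BL/6J JCL mice had transverse aortic constriction (TAC), a ligature around the aortic arch that loads the left ventricle, at 8 weeks of age. Non-cardiomyocytes (non-CMs) of healthy hearts (0 weeks, untreated control), of hearts in adaptive hypertrophy (2 weeks after TAC) and of hearts in the heart failure phase (12 weeks after TAC) were measured by droplet single-cell RNA-seq. The atria were removed, the ventricles were digested with collagenase, and the cells were not sorted for a marker. Each phase had 1 library, so phase, library and the age reached by the mice cannot be told apart, no test between phases was possible, and intervals here cover counting error only. The number of hearts behind each library is not given in the sources used here.

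The libraries held 12287823, 4465929 and 1712728 UMIs in 3892, 2231 and 792 kept cells at 0, 2 and 12 weeks, so the heart failure phase rests on the fewest cells. Arterial ECs contributed 233551 UMIs from 73 cells, 305422 UMIs from 123 cells and 86992 UMIs from 31 cells. Their median depth was 2384, 1980 and 2298 UMIs per cell, against 2334, 1602.5 and 1353 UMIs in the ECs that the rule left out, called other ECs below. The libraries shared 5, 1 and 3 cell barcodes for 0 and 2, 0 and 12, and 2 and 12 weeks, none of them between arterial ECs. A doublet caller (Scrublet) marked 35, 2 and 5 cells in the libraries and no arterial EC.

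Arterial ECs were 7.19% of ECs in the healthy library (95% exact Clopper-Pearson interval 5.68 to 8.96), 7.98% at 2 weeks (6.68 to 9.45) and 12.7% at 12 weeks (8.80 to 17.5). The intervals of the healthy and the 12-week library overlapped by a narrow margin, and how cells survived digestion was not measured. When every cell was thinned to 1000 UMIs before the rule was applied and shallower cells were left out, the shares were 3.47%, 5.95% and 13.6%. Cells at the limit with exactly 2 rule UMIs numbered 21, 40 and 5, and 61, 87 and 14 ECs just outside it had 1. Stmn2, which the rule did not use, stood at 629.8, 610.7 and 1313 UMIs per 1000000 UMIs (CPM) in the cells just inside and at 491.7, 575.5 and 781.7 CPM in those just outside.

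Large-artery genes outside the rule were also higher in the chosen cells than in other ECs, and fewer genes of the arteriole and general arterial lists were. Against other ECs, 98 of 3365 genes (2.91%) were at least 2-fold higher in each of the 3 libraries, and 85 genes (2.53%) were lower in the same way. In the hand-written large-artery list, 14 of 14 genes measured deeply enough were higher, among them Gja5 and Gkn3 of the rule. In the arteriole list 4 of 13 were higher, namely Jag1, Alpl and the rule genes Gja4 and Sema3g. Of 19 arterial identity genes outside the rule, 4 were higher (Jag1, Bmx, Hey1 and Vegfc) and 0 lower, and 10 were above other ECs in each library. Since cells were chosen and compared on the same counts, these counts are a description. The lists were also chosen with earlier results of these data known, so their counts are no independent check of the arterial label. Htra1 (a secreted serine protease) was the gene outside the rule with the highest smallest-library ratio, at 14.8-fold, 16.2-fold and 15.5-fold over other ECs at 0, 2 and 12 weeks. Clu (clusterin, an extracellular chaperone) was 18.5-fold, 21.3-fold and 14.05-fold higher, and Mgp (matrix Gla protein, an inhibitor of vessel wall calcification) was 12.2-fold, 48.5-fold and 33.5-fold higher. Atp2a3 (an endoplasmic reticulum calcium pump), Eln (elastin), Edn1 (endothelin 1, a vasoconstrictor peptide), Sulf1 and Igf2 were also among the 15 leading genes. Of 16 vasoactive genes, 3 were higher, namely Edn1, Nos3 (endothelial nitric oxide synthase) and Ace (angiotensin-converting enzyme). Another 5 were lower (Aqp1, Kcna5, Adm, Ednrb and Ramp3), beside 2.91% of all genes higher and 2.53% lower. On the lower side stood capillary genes, of which 8 of 11 were at least 2-fold lower in each library, among them Fabp4, Fabp5, Aplnr, Rgcc and Gpihbp1. Aqp1 (a water channel of microvessels) was at 0.234, 0.158 and 0.0353 of its level in other ECs.

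Markers of other cell types were present at varied levels in the chosen cells. The summed level of 15 mural genes was 411.0, 366.7 and 264.4 CPM at 0, 2 and 12 weeks, with 4, 5 and 7 members at 0 UMIs, against 214.6, 102.4 and 165.4 CPM in other ECs. The sum of 12 FB genes was 886.3, 366.7 and 1483 CPM with 1, 3 and 4 members at 0, against 1167, 181.2 and 1287 CPM in other ECs, so arterial ECs were below other ECs at 0 weeks and above them at 2 and 12 weeks. In blood cells the FB sum was 1268, 335.4 and 1401 CPM. The part of mural and FB transcripts in the results below was not tested, except where values in cells with no mural UMI are given. The sum of 13 blood cell genes was 209.8, 36.0 and 298.9 CPM, against 231.1, 69.4 and 318.7 CPM in other ECs. The sum of 15 cardiomyocyte genes was 727.9, 684.3 and 321.9 CPM, below the 1605, 1150 and 649.5 CPM of other ECs. Lymphatic genes lay mostly in a single cell. A healthy cell of 8512 UMIs held 513 of the 514 Ccl21a UMIs, 52 of the 53 Nts UMIs and all 12 Lyve1 UMIs, and it had entered on 2 Gja4 UMIs. A second healthy cell had 2 UMIs of Prox1, the lymphatic master regulator, and 3 of Mmrn1. These 2 cells go against the arterial label, and the genes whose ratios rest on them are named where they are given.

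The large-artery genes moved apart from each other between phases. Gkn3 was at 723.6 CPM in the healthy library (Poisson interval 618.6 to 841.3), at 206.3 CPM at 2 weeks (158.5 to 263.9) and at 1287 CPM at 12 weeks (1060 to 1549), and these intervals did not overlap. Cells with a Gkn3 UMI fell from 41 of 73 to 15 of 123 and were 18 of 31 at 12 weeks, while other ECs gave 6, 0 and 1 Gkn3 UMIs in all. As Gkn3 is a rule gene and a cell could enter on Gkn3 alone, the level was also taken in cells chosen without it, where the 2-week level was 0.424 and the 12-week level 2.64 times the healthy level, against 0.285 and 1.78 in the full set. In cells thinned to 1000 UMIs before the choice, which left 21, 58 and 18 cells, the ratio at 12 weeks was 0.966, so the higher level at 12 weeks was not seen there.

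**Figure D1:**
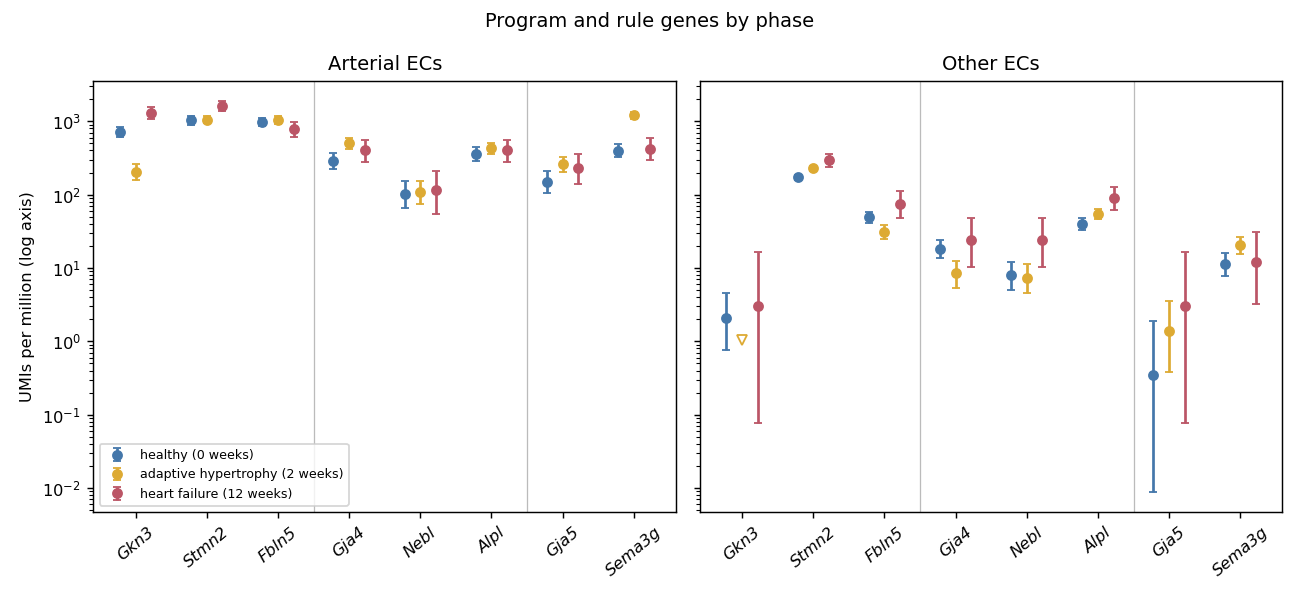
Level of each program gene and of the other rule genes in CPM (log axis) in arterial ECs (left) and other ECs (right), 1 point per library with its 95% Poisson interval, and an open triangle at the limit of 3 counts where no UMI was found. Gkn3 in arterial ECs dips to 206.3 CPM at 2 weeks and stands at 1287 CPM at 12 weeks, while Fbln5, Nebl and Alpl stay within 2-fold of their healthy levels.

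Stmn2 was at 1028 CPM in the healthy library, 1051 CPM at 2 weeks and 1621 CPM at 12 weeks, a ratio of 1.58 for 12 weeks against 0 (95% exact interval 1.27 to 1.95). Other ECs moved alike, with 172.2, 227.5 and 294.7 CPM and a ratio of 1.71 (1.36 to 2.13), and the ratio of these ratios was 0.92 (0.68 to 1.24). In the thinned cells the Stmn2 ratio was 0.884, on the other side of 1. Fbln5 was level, at 976.2, 1041 and 781.7 CPM, with ratios of 1.07 (0.90 to 1.27) at 2 weeks and 0.80 (0.60 to 1.05) at 12 weeks. Of the 3 genes, only Gkn3 passed the 2-fold limit, and only downward at 2 weeks and upward from 2 to 12 weeks.

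Of the arteriole genes, Nebl and Alpl were close between phases. Gja4 was at 286.9 CPM in the healthy library, 500.9 CPM at 2 weeks and 402.3 CPM at 12 weeks, with a ratio of 1.75 (1.30 to 2.36) at 2 weeks. In other ECs the Gja4 ratio was 0.461 (0.27 to 0.76), but ECs rich in Gja4 had been moved out of that set by the rule. Nebl was at 102.8, 108.0 and 115.0 CPM and Alpl at 355.4, 425.6 and 402.3 CPM, and every interval of these 2 genes overlapped those of the other libraries. Of the 2 rule genes outside the programs, Sema3g passed the 2-fold limit at 2 weeks and Gja5 did not. Sema3g (a secreted semaphorin) was at 398.2, 1202 and 425.3 CPM, 3.02-fold higher at 2 weeks (2.40 to 3.83) and back near its healthy level at 12 weeks. In other ECs the Sema3g ratio was 1.82 (1.17 to 2.88), but the rule had capped its level there as it had for Gja4. Gja5 (connexin 40) was at 149.9, 258.7 and 229.9 CPM, with a ratio of 1.73 (1.15 to 2.65) at 2 weeks.

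The 6 program genes lie on GRCm38 (mm10) at chr6:87383256-87388935 (Gkn3, minus strand), chr3:8509360-8561606 (Stmn2, plus), chr12:101746565-101819055 (Fbln5, minus), chr4:127311421-127314039 (Gja4, minus), chr2:17343909-17731464 (Nebl, minus) and chr4:137741733-137796384 (Alpl, minus), all protein coding. The promoters of Gkn3 and Gja4 are shown because these are the program genes whose 2-week ratios had intervals wholly below 1 and wholly above 1. Both are RefSeq windows of 300 bases on GRCm38.p6, on the minus strand, from chr6:87388886-87389185 and chr4:127313990-127314289. Capitals mark matches, on either strand, to ACAAT (a core of SOX factor sites), TGGGAA (RBPJ, the DNA-binding partner of Notch) or CACGTG (the palindromic E-box bound by HEY factors and others).
Gkn3 promoter: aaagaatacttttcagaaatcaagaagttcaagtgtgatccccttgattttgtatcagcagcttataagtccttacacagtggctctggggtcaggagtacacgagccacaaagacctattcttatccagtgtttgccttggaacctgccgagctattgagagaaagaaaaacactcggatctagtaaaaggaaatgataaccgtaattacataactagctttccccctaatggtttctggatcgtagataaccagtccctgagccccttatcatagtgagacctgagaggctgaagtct
Gja4 promoter: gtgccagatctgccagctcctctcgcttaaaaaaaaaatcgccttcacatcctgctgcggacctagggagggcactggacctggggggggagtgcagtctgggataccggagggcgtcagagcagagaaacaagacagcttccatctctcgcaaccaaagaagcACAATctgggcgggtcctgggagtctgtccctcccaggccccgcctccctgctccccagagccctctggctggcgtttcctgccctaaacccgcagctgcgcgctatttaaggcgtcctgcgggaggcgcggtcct
The Gja4 window held 1 ACAAT and neither other motif, and the Gkn3 window held none of the 3. Over 32851 promoter windows of this length, 31.0% held ACAAT, 25.6% TGGGAA and 7.15% CACGTG, so a single match is common. None of this measures binding.

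Summed over the 6 genes, the large-artery genes gave 78.5% of the program UMIs in the healthy library (637 large-artery and 174 arteriole UMIs, interval 75.6 to 81.3), 69.0% at 2 weeks (66.0 to 71.8) and 80.0% at 12 weeks (75.8 to 83.9). Without the rule genes Gkn3 and Gja4, the shares were 81.4%, 79.7% and 82.3%, with overlapping intervals. The lower share at 2 weeks therefore lay in Gkn3 and Gja4 and was not seen in Stmn2, Fbln5, Nebl and Alpl. Other ECs gave 77.2%, 78.7% and 72.9%.

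Cell by cell, 59 of 73 healthy arterial ECs (80.8%, 69.9 to 89.1) had more large-artery than arteriole UMIs, 79 of 123 at 2 weeks (64.2%, 55.1 to 72.7) and 27 of 31 at 12 weeks (87.1%, 70.2 to 96.4). Arteriole UMIs led in 7, 27 and 2 cells, and the sums were equal in 7, 17 and 2. This is a cut through a range, and 15, 40 and 3 cells lay within 1 UMI of it. The sums hold the rule genes Gkn3 and Gja4, so entry through either partly set the side. The counts are therefore a description. Without these 2 genes the shares of program UMIs given above had overlapping intervals. A healthy cell had a median of 8 large-artery UMIs and 2 arteriole UMIs, against 4 and 2 at 2 weeks and 7 and 2 at 12 weeks.

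**Figure D2:**
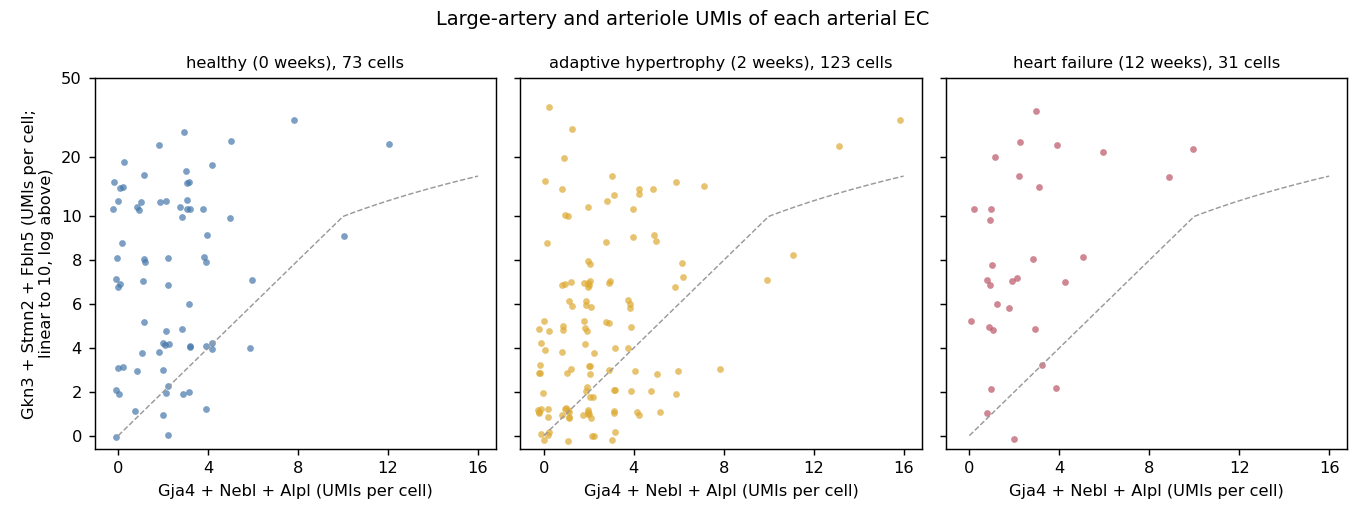
Each point is 1 arterial EC, with the sum of its Gja4, Nebl and Alpl UMIs on the x axis and of its Gkn3, Stmn2 and Fbln5 UMIs on the y axis (linear to 10, log above), in 3 panels for 0, 2 and 12 weeks. Points are spread by a small random shift, the dashed line marks equal sums, and 79 of 123 cells at 2 weeks lie above it against 59 of 73 healthy cells. Gkn3 and Gja4 also chose the cells.

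Cells that leaned to the large-artery genes differed from arteriole-leaning cells in genes that took no part in the split, given here as a description. Of 643 genes tested, 10 (1.56%) were at least 2-fold higher in each of the 3 libraries, and 0 (0%) were lower in that way. At 12 weeks the arteriole-leaning side was only 2 cells of 3884 UMIs in all, and each of the 8 leading genes passed there on 0 UMIs in those cells, so that library adds little. A gene could also enter through the side where it was high, and the large-artery side held more cells, so the counts in the 2 directions are not to be compared. Ace was at 343.7 CPM in large-artery-leaning and 63.5 CPM in arteriole-leaning cells of the healthy library, and at 417.8 and 50.6 CPM at 2 weeks. These rest on 2 and 3 UMIs in the arteriole-leaning cells, with ratios of 5.41 (1.44 to 45.6) and 8.25 (2.73 to 40.8). Emp3 (an epithelial membrane protein family member) had 81 UMIs against 3 and 87 against 1 at 0 and 2 weeks. Vcam1 (a leukocyte adhesion molecule) had 73 UMIs against 4 in healthy cells and 74 against 0 at 2 weeks. Col8a1 (a chain of the subendothelial collagen VIII), Pam (a peptide-amidating enzyme), Igf2, Atp2a3 and the rule gene Sema3g completed the 8 leading genes. Cd36 (a fatty acid transporter of capillaries) was at 649.9 against 1016 CPM in healthy cells and at 911.5 against 2547 CPM at 2 weeks.

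Cells with a Gkn3 UMI had higher Eln levels at 0 and 2 weeks but not at 12. Gkn3 is a rule gene, so cells without a Gkn3 UMI could enter only on Gja4, Gja5 or Sema3g. The values by this split are therefore a description. In the healthy library Eln was at 1500 CPM in the 41 cells with a Gkn3 UMI and at 226.3 CPM in the 32 cells without, and at 2 weeks it was at 2958 CPM in 15 cells and 552.6 CPM in 108. At 12 weeks the levels were alike, 816.7 CPM in 18 cells and 815.3 CPM in 13. Rbp7 (a retinol-binding protein of small vessels) ran the other way in all 3 libraries, at 227.6 against 940.0 CPM, 235.8 against 989.3 CPM, and 18.6 against 724.7 CPM. Of the arteriole program genes, Nebl was also lower with Gkn3 in all 3 libraries, on 10, 1 and 3 UMIs. Gja4 and Alpl were lower with Gkn3 at 2 and 12 weeks. In the healthy library they were at 295.0 against 278.5 CPM and 370.8 against 339.4 CPM. Bmx, an arterial tyrosine kinase, was at 429.8 against 174.1 CPM in the healthy library, at 171.5 against 77.3 CPM at 2 weeks and at 241.3 against 211.4 CPM at 12 weeks. Fbln5 was at 1281 against 661.5 CPM and 1908 against 884.9 CPM at 0 and 2 weeks, but at 742.4 against 845.5 CPM at 12 weeks, and Stmn2 likewise was lower with Gkn3 at 12 weeks, at 1466 against 1872 CPM.

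Across all genes, changes between phases were called when a ratio was at least 2-fold and its counting interval excluded 1, among genes with at least 20 UMIs over the 2 libraries. At 2 weeks 271 of 4012 genes (6.75%) were higher than in the healthy library and 176 (4.39%) lower. At 12 weeks 101 of 2590 genes (3.9%) were higher than in the healthy library and 151 (5.83%) lower. From 2 to 12 weeks 129 of 3151 genes (4.09%) were higher and 227 (7.2%) lower. Many calls were lost without 1 cell, although few had most of their UMIs in 1 cell. Over 50% lay in 1 cell for 3 of the 271 and 5 of the 176 calls at 2 weeks. At 12 weeks against 0 this held for 0 of the 101 and 5 of the 151. After the cell richest in a gene was left out of the higher library for that gene, 204 higher and 98 lower calls were left at 2 weeks, and 63 and 111 at 12 weeks against 0. Other ECs passed the limit in the same direction for 63 of the 271 and 58 of the 176 genes at 2 weeks, beside 2.39% higher and 3.56% lower in other ECs over the same 4012 genes. At 12 weeks they did so for 43 of the 101 and 37 of the 151, beside 4.44% and 4.13% of the 2590 genes. From 2 to 12 weeks it was 32 of the 129 and 30 of the 227, beside 3.46% and 3.3% of the 3151 genes.

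Genes of the large-artery list split into a group that dipped with Gkn3 and a group that did not. The list holds the rule genes Gkn3 and Gja5. Its counts and medians, here and below, rest in part on values that chose the cells. Of 16 genes on the list, 3 were lower at 2 weeks (Gkn3, Bmx and Cytl1) and 1 was higher (Ltbp4), beside 4.39% and 6.75% of all genes, with a median log2 ratio of -0.04 beside 0.07 over all genes. Cytl1 (a secreted cytokine-like protein) was at 1927, 648.3 and 2989 CPM at 0, 2 and 12 weeks, lower at 2 weeks by a ratio of 0.336 (0.28 to 0.40). Bmx was at 304.0, 91.7 and 229.9 CPM, with a ratio of 0.302 (0.19 to 0.47) at 2 weeks. Mgp went from 8187 to 5664 and 16335 CPM, and its 2.00-fold ratio at 12 weeks (1.86 to 2.14) fell just short of the limit. Clu was at 2291, 1388 and 3380 CPM. The shape of a low 2-week and a high 12-week value was thus shared by Gkn3, Cytl1, Mgp and Clu, and from 2 to 12 weeks 5 of the 16 genes were called higher (the rule gene Gkn3, Bmx, Mgp, Clu and Cytl1), beside 4.09% of all genes. In other ECs the list's median log2 ratio was -0.52 from 0 to 2 weeks and 1.05 from 2 to 12 weeks, and Clu took the same shape there, at 123.7, 65.2 and 240.6 CPM. The summed level of the list in blood cells was 251.0, 151.7 and 470.5 CPM, with Mgp at 139.6, 74.5 and 296.6 CPM, and the FB sum given above was likewise lowest at 2 and highest at 12 weeks. Their part in this shape was not tested. Other ECs had far lower levels of Cytl1 and Mgp, and these fell further there at 2 weeks, to ratios of 0.0556 and 0.174.

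Eln and Fbln2 were close between phases, while the summed level of the 21 elastic matrix genes was 4205, 5910 and 4863 CPM at 0, 2 and 12 weeks. Eln was at 873.5, 920.0 and 816.2 CPM, Fbln2 (fibulin 2) at 972.0, 982.2 and 931.1 CPM, and Fbln5 as above. The Eln level hides a change among cells, since 48 of 73, 43 of 123 and 22 of 31 cells had an Eln UMI (47.9%, 26.1% and 29.0% of cells thinned to 1000 UMIs), and at 2 weeks Eln was higher than in the healthy library both in cells with a Gkn3 UMI and in cells without. Of 21 elastic matrix genes, 8 were deep enough at 2 weeks and 7 at 12 weeks, and only Ltbp4, which binds latent TGF-beta and fibulins, was called (1 of 8 at 2 weeks, beside 6.75% of all genes, and 0 of 7 at 12 weeks, beside 3.9% higher and 5.83% lower), at 993.4, 2554 and 1747 CPM and 2.57-fold higher at 2 weeks (2.22 to 2.99). Other ECs had a Ltbp4 ratio of 1.72 (1.61 to 1.85). Edn1 was at 552.3, 645.0 and 781.7 CPM and Vegfc (a lymphangiogenic growth factor) at 334.0, 268.5 and 229.9 CPM, and neither passed the limit. At 12 weeks against 0 none of the 16 large-artery genes was called, their median log2 ratio being 0.54 beside -0.03 over all genes. In the thinned cells that median was -0.19.

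Several arteriole list genes were lower at 12 weeks, while Gja4, Nebl and Alpl stayed at ratios of 1.40, 1.12 and 1.13. At 2 weeks 13 of 15 genes were above their healthy level, with a median log2 ratio of 0.66 beside 0.07 over all genes, although only Unc5b and the rule gene Sema3g passed the limit upward (2 of 15, beside 6.75% of all genes) and Tmem100 downward (beside 4.39%). At 12 weeks Rbp7, Cxcl12 and Btnl9 were lower than in the healthy library, Sox17 was higher, 6 of 13 genes were above their healthy level, and the median was -0.72. Over all genes 5.83% were lower and 3.9% higher at 12 weeks. From 2 to 12 weeks 8 of 14 genes were lower and 0 higher, with a median log2 ratio of -1.49 beside -0.13 over all genes and 7.2% of all genes lower. The list holds the rule genes Gja4 and Sema3g, so these counts and medians rest in part on values that chose the cells. In other ECs the medians of these genes were 0.14 and 0.45. The capillary list moved the same way in arterial ECs, with medians of 0.96 at 2 weeks and -1.21 at 12 weeks against 0. From 2 to 12 weeks its median was -3.08, or -2.11 with genes at 0 UMIs set to the limit of 3 counts. The part of capillary transcripts in the arteriole change was not tested. Cxcl12 (a chemokine that guides coronary artery growth) was at 920.6, 1719 and 229.9 CPM, a ratio of 0.25 (0.15 to 0.40) at 12 weeks, whereas in other ECs it was 1.92 (1.78 to 2.08). In cells with no mural UMI the Cxcl12 ratios were 3.45 at 2 weeks and 0.486 at 12 weeks. Btnl9 (a butyrophilin-like surface protein) had 46, 117 and 2 UMIs, or 197.0, 383.1 and 23.0 CPM, and its ratio at 12 weeks was 0.117 (0.0137 to 0.446). Rbp7 was at 578.0, 874.2 and 287.4 CPM, a ratio of 0.497 (0.31 to 0.77), which became 0.62 (0.38 to 0.96) without the richest healthy cell. Unc5b (a netrin receptor that restrains sprouting) rose 4.76-fold at 2 weeks (2.34 to 10.9), from 9 to 56 UMIs, and had 1 UMI at 12 weeks.

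**Figure D3:**
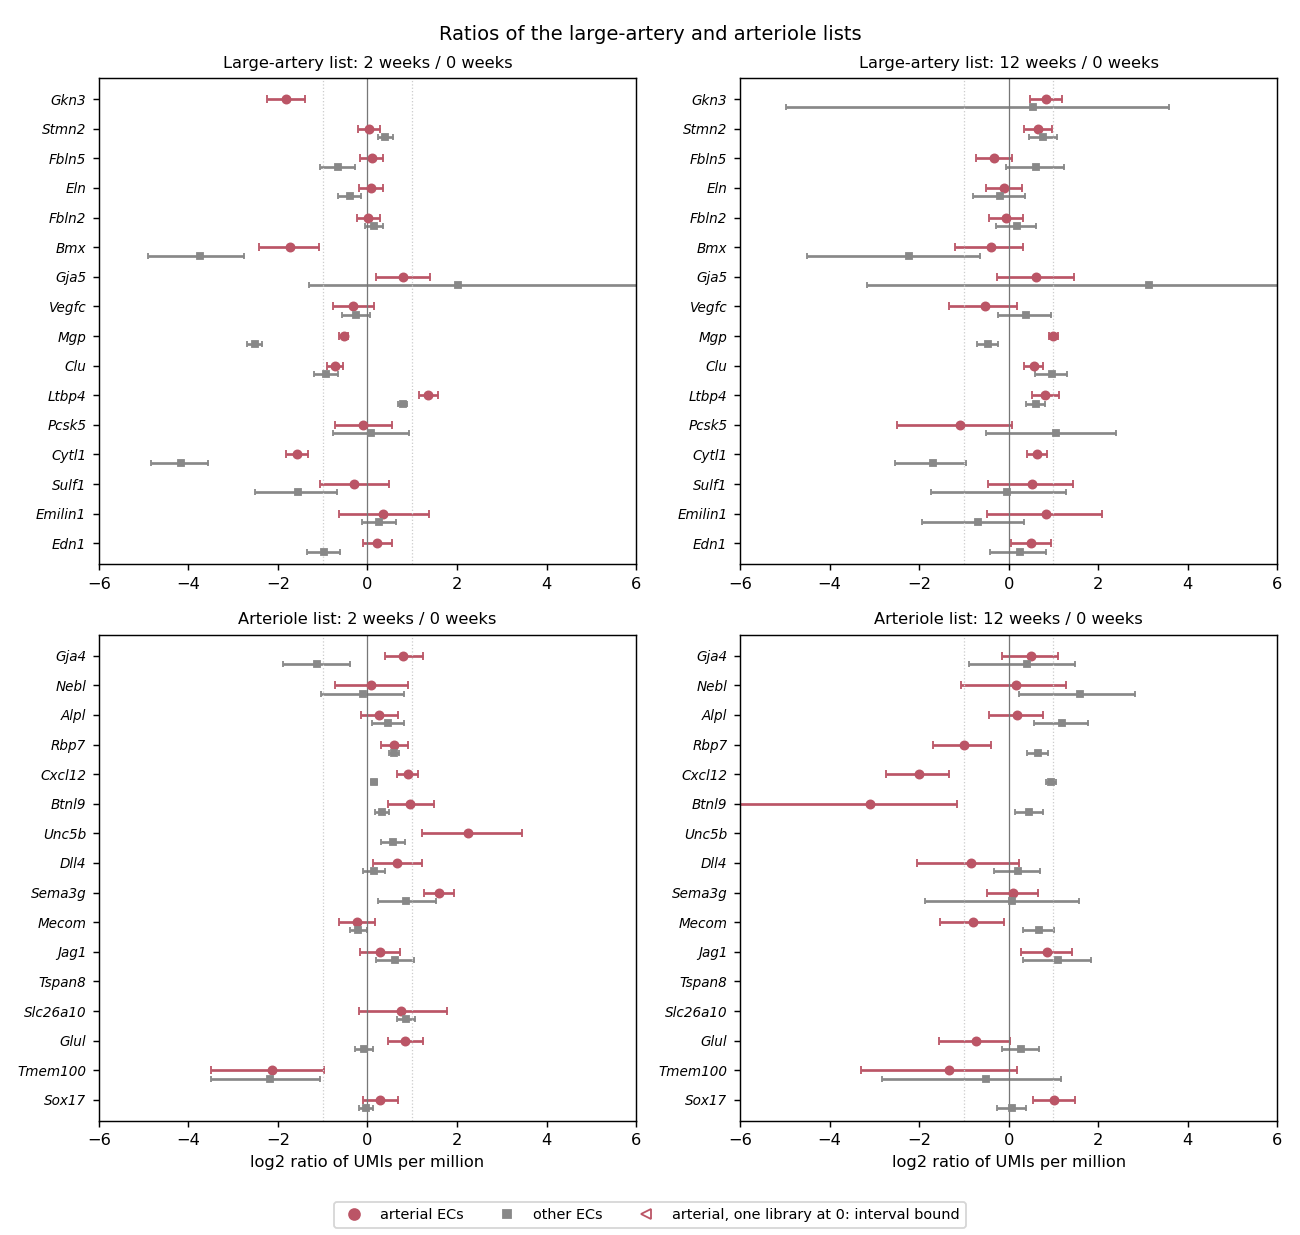
Log2 ratio of CPM for each gene of the large-artery and arteriole lists, 2 weeks against 0 (left) and 12 weeks against 0 (right), in arterial ECs (circles) and other ECs (squares) with 95% exact intervals, dotted lines at 2-fold, intervals cut at the panel edge, and no point where arterial ECs had under 20 UMIs. Gkn3, Bmx and Cytl1 lie left of 2-fold at 2 weeks, and Rbp7, Cxcl12 and Btnl9 at 12 weeks.

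The arteriole-leaning cells were fewest at 12 weeks, so the phase ratios were repeated in large-artery-leaning cells alone, an alternative chosen after seeing the data. Cxcl12 stood at 0.205 at 12 weeks, and Btnl9 had no UMI in these cells at 12 weeks. The median log2 ratio of the arteriole list was nearer 0 in these cells. It was 0.26 at 2 weeks and -0.36 at 12 weeks, against 0.66 and -0.72 in all arterial ECs.

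Arterial identity genes outside the rule were called in each comparison. Of 22 deep enough at 2 weeks, 7 were higher (Sox7, Sox18, Jag2, Notch4, Unc5b, Cxcr4 and Tspan2) and 2 lower (Bmx and Tmem100), beside 6.75% and 4.39% of all genes. Of 18 at 12 weeks, 2 were higher (Sox17 and Sox18) and 2 lower (Nrp1 and Cxcl12), beside 3.9% and 5.83%. From 2 to 12 weeks 7 of 20 were lower (Efnb2, Dll4, Jag2, Notch1, Nrp1, Unc5b and Cxcl12), beside 7.2%, and Bmx was higher, beside 4.09%. The libraries differ in depth, so these counts were not compared. Sox18, a transcription factor of vessel and lymphatic development, was at 94.2, 451.8 and 597.8 CPM, 4.80-fold higher at 2 weeks (3.04 to 7.90) and 6.35-fold at 12 weeks (3.79 to 11.0). It rose as much in other ECs, 5.52-fold and 7.99-fold. Sox17, which maintains arterial identity, was at 393.9, 478.0 and 793.2 CPM, 2.01-fold higher at 12 weeks (1.45 to 2.78), with a ratio of 1.05 (0.84 to 1.31) in other ECs. The ratio of ratios for Sox17 was 1.91 (1.31 to 2.80). The Sox17 ratio fell under the limit without the richest cell (1.82), without the 2 lymphatic-marker cells (1.91) and in thinned cells (1.01). The Notch ligand Jag1 was at 299.7, 363.4 and 540.3 CPM and the Notch target Hey1 at 197.0, 314.3 and 298.9 CPM, with no call. Dll4 was at 184.1, 291.4 and 103.5 CPM. Nrp1 (a VEGF and semaphorin co-receptor) was at 663.7, 854.6 and 241.4 CPM, a ratio of 0.364 (0.22 to 0.58) at 12 weeks, against 1.02 in other ECs.

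The summed level of capillary genes in arterial ECs was highest at 2 weeks and lowest at 12 weeks. Summed over 12 genes, they stood at 7647, 14577 and 3288 CPM in arterial ECs and at 25302, 36988 and 30819 CPM in other ECs. The capillary list holds Kdr, a gene of the EC rule. Its counts, sums and medians, here and elsewhere, therefore rest in part on a value that chose the cells. At 2 weeks 5 of 11 were higher (Aplnr, Fabp5, Gpihbp1, Cd300lg and Kdr), beside 6.75% of all genes, and Timp4 was lower, beside 4.39%. Gpihbp1 was at 1.92 without its richest cell, under the limit. At 12 weeks 6 of 9 were lower than in the healthy library (Rgcc, Fabp4, Gpihbp1, Cd36, Lpl and Kdr), beside 5.83% of all genes, with a median log2 ratio of -1.21 in arterial ECs and 0.26 in other ECs. With genes at 0 set to the limit of 3 counts in a library, the median at 12 weeks was -1.24. From 2 to 12 weeks 10 of 11 were lower, beside 7.2% of all genes, and Timp4 was higher, beside 4.09%.

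Fabp4 (a fatty acid binding protein) was at 5361, 10451 and 2426 CPM, a ratio of 0.452 (0.39 to 0.52) at 12 weeks against 0, with 1.19 (1.16 to 1.22) in other ECs. Kdr, the main VEGF receptor and a gene of the EC rule, had 65, 197 and 3 UMIs, or 278.3, 645.0 and 34.5 CPM, and a 12-week ratio of 0.124 (0.025 to 0.38), while other ECs had 1.27 (1.12 to 1.43). Gpihbp1, which carries lipoprotein lipase to the capillary surface, had 58, 157 and 0 UMIs, and its limit at 12 weeks was 34.5 CPM (3 counts in 86992 UMIs). Its 12-week ratio to the healthy 248.3 CPM had an upper bound of 0.176, and other ECs had a ratio of 1.56. Cd36 was at 749.3, 1372 and 356.4 CPM, and Rgcc, a cell cycle regulator of capillary ECs, at 351.1, 396.2 and 46.0 CPM. Without the richest healthy cell the 12-week ratios were 0.494 for Fabp4 and 0.159 for Kdr, but Cd36 at 0.55 (0.36 to 0.82) and Lpl at 0.29 (0.03 to 1.23) were no longer called. In large-artery-leaning cells the median log2 ratio of the capillary list at 12 weeks was -1.71. At 2 weeks it was 0.49 in these cells, against 0.96 in all arterial ECs. Where cells in part capillary entered through the rule, they could not be told apart from arterial cells with capillary transcripts.

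Scarb1, the high-density lipoprotein receptor on which the study centers, belonged to the same lipid uptake group. It was at 68.5 CPM in healthy arterial ECs (16 UMIs) and 101.5 CPM at 2 weeks (31 UMIs). At 12 weeks it had no UMI among the 86992 UMIs of the arterial ECs. The limit that this count of 0 sets is 34.5 CPM. Other ECs had 164.3, 187.6 and 147.3 CPM. For 12 weeks against 0 the arterial interval of the ratio ran from 0 to 0.70, and the gene was called lower from 2 to 12 weeks, with an upper bound of 0.44. Of 10 lipid uptake genes deep enough at 12 weeks, 4 were lower (beside 5.83% of all genes), all of them also on the capillary list.

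**Figure D4:**
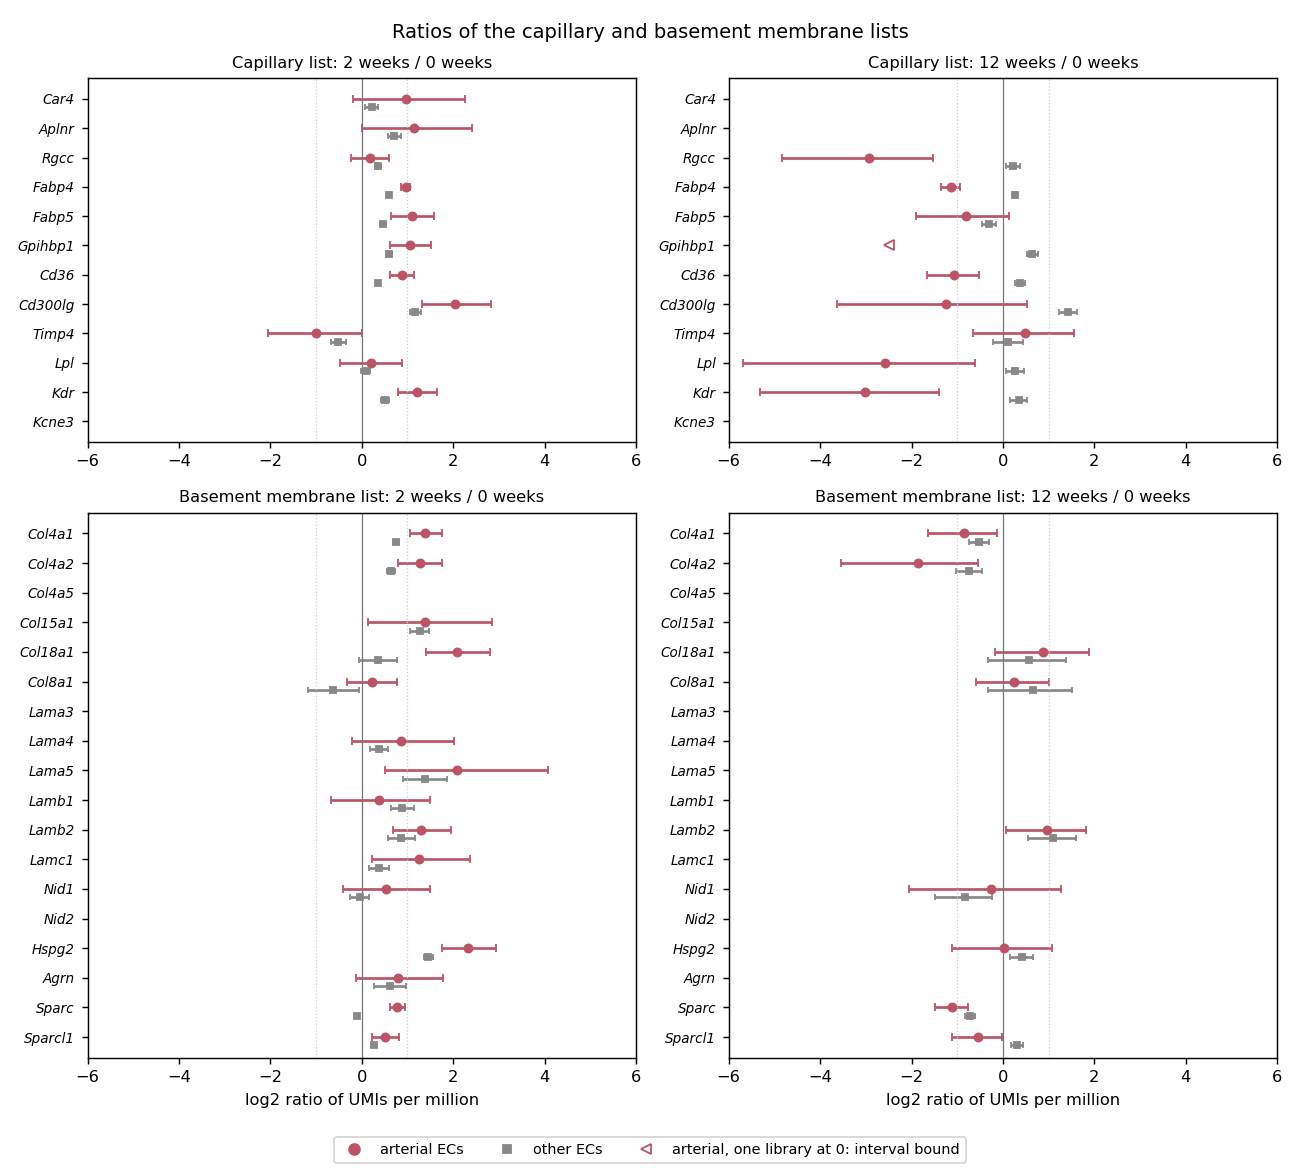
Log2 ratio of CPM for each gene of the capillary and basement membrane lists, 2 weeks against 0 (left) and 12 weeks against 0 (right), in arterial ECs (circles) and other ECs (squares) with 95% exact intervals, dotted lines at 2-fold, an open triangle at the interval bound where a library had 0 UMIs, and no point where arterial ECs had under 20 UMIs. At 12 weeks 6 capillary genes, among them Kdr of the EC rule, are called lower in arterial ECs while their squares stay near or above 0.

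Basement membrane genes stood above their healthy levels at 2 weeks. All 15 genes deep enough were above their healthy level, 8 of them called, beside 6.75% of all genes (Col4a1, Col4a2, Col15a1, Col18a1, Lama5, Lamb2, Lamc1 and Hspg2), with a median log2 ratio of 1.22 in arterial ECs, 0.61 in other ECs and 0.07 over all genes. Col15a1 was no longer called without its richest cell. The summed level of the 18 genes was 4012, 7858 and 2770 CPM in arterial ECs and 7583, 9479 and 5996 CPM in other ECs. The capillary list also stood higher in arterial ECs at 2 weeks, with a median log2 ratio of 0.96. The part of capillary transcripts in the basement membrane change was not tested. Col4a1, a chain of the main basement membrane collagen, was at 393.9, 1035 and 218.4 CPM, 2.63-fold higher at 2 weeks (2.08 to 3.35), with 1.68 (1.60 to 1.77) in other ECs. Col18a1, the source of endostatin, was at 94.2, 396.2 and 172.4 CPM, a ratio of 4.21 (2.66 to 6.96) against 1.27 (0.95 to 1.70) in other ECs. Hspg2 (perlecan) was at 124.2, 618.8 and 126.4 CPM, 4.98-fold higher at 2 weeks (3.36 to 7.64), with 2.75 in other ECs and a ratio of ratios of 1.81 (1.22 to 2.70). At 12 weeks none of 9 was higher, and Col4a2 and Sparc (a collagen-binding matricellular protein) were lower than in the healthy library, beside 5.83% of all genes. Sparc was at 1867, 3189 and 862.1 CPM, and its ratio at 12 weeks was 0.462 (0.36 to 0.59).

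Some genes of vessel tone were called. Of 15 vasoactive genes at 2 weeks, Ece1 (endothelin-converting enzyme) and Ramp3 were higher and Calcrl and Kcnn4 lower, beside 6.75% and 4.39% of all genes, and none of these 4 calls was left without the richest cell. Nos3 was at 218.4, 219.4 and 287.4 CPM and Ace at 286.9, 304.5 and 264.4 CPM. At 12 weeks 2 of 12 were lower, Calcrl and Aqp1, beside 5.83% of all genes. Calcrl, a receptor for adrenomedullin and related peptides, had 21, 13 and 0 UMIs. Aqp1 was at 80.5 CPM at 12 weeks, from 411.0 in the healthy library and 209.5 at 2 weeks, a ratio of 0.196 (0.077 to 0.42) against 1.30 (1.20 to 1.40) in other ECs. Among flow-response genes Klf2 was at 5686, 3808 and 4564 CPM and Klf4 at 2346, 1349 and 1299 CPM. These 2 transcription factors of laminar flow are also sensitive to dissociation, and neither was called. Of the list's 18 genes deep enough at 2 weeks, 3 were called higher (Plxnd1, Il6st and Kdr, a gene of the EC rule), beside 6.75% of all genes. The list's median log2 ratio was 0.27 in arterial and 0.24 in other ECs. Of 17 at 12 weeks Plxnd1 and Il6st were higher and Kdr lower, beside 3.9% and 5.83%, and without the richest cell of each gene the ratios of Plxnd1 (1.71) and Il6st (1.84) were under the limit. In the TGF-beta list 3 of 17 genes were higher at 2 weeks, beside 6.75% of all genes. Eng (endoglin) was 2.13-fold higher at 2 weeks (1.78 to 2.56), from 710.8 to 1516 CPM, and stood at 885.1 CPM at 12 weeks, with a 2-week ratio of 1.19 (1.12 to 1.27) in other ECs. The others were Tgfb2 and Ctgf, but 17 of the 24 Ctgf UMIs lay in 1 cell and Tgfb2 was not called without its richest cell. Of 13 at 12 weeks Tgfbr2 (a TGF-beta receptor) was lower, with 1 UMI against 22, beside 5.83% of all genes.

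Of 12 adhesion and inflammation genes at 12 weeks, 1 was higher (Vcam1) and 2 were lower (Cxcl12 and Irf1), beside 3.9% and 5.83% of all genes, and of 13 at 2 weeks Cx3cl1 and Il6 were higher, beside 6.75%. Il6 was not called without its richest cell. Vcam1 was at 329.7 CPM in the healthy library, 252.1 CPM at 2 weeks and 1092 CPM at 12 weeks. The ratio of 12 weeks to 0 was 3.31 (2.43 to 4.53), while in other ECs it was 0.552 (0.37 to 0.80), and the ratio of ratios was 6.01 (3.71 to 9.71). A single cell held 36 of the 95 UMIs at 12 weeks, and the ratio was 2.19 without it. It was 1.89 in cells with no mural UMI, below the limit. Of 40 genes of the actin cytoskeleton other than Acta2 and Tagln, 38 were deep enough at 2 weeks and 35 at 12 weeks, and the called genes included Cnn2 (higher at 2 weeks), Myl9 (lower at 2 weeks) and Tmsb10 (lower at 12 weeks), Myl9 no longer without its richest cell. The list median was 0.15 at 2 weeks and 0.01 at 12 weeks, near the 0.07 and -0.03 of all genes.

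Many of the genes chosen by rank over the whole table also moved in other ECs. At 2 weeks the clock genes Dbp, Nr1d1 and Nr1d2 had 111, 62 and 29 UMIs against 0 in the healthy arterial ECs, with lower bounds of the ratio of 22.6, 12.5 and 5.64, and in other ECs they were 40.9-fold, 47.8-fold and 10.9-fold higher. The time of day of each collection is not given in the sources used here. Sema3f (a semaphorin), with 47 UMIs against 3, was 11.98-fold higher (3.86 to 60.2) and Sdc3 (syndecan 3) 7.52-fold (3.26 to 21.3), with 3.55-fold and 3.09-fold in other ECs. On the lower side Malat1, a nuclear RNA, was at 59807 and 13247 CPM, with a ratio of 0.222 in arterial and 0.272 in other ECs. Gsn and Dcn, abundant in FBs, and Lyz2, of myeloid cells, had 7, 4 and 1 UMIs at 2 weeks against 78, 29 and 21, ratios of 0.0686 (0.027 to 0.15), 0.105 (0.027 to 0.30) and 0.0364 (0.00088 to 0.23), and other ECs had 0.0729, 0.0634 and 0.141. Ccl21a was lower at 2 weeks and at 12 weeks only through the 1 lymphatic-marker cell, which left 1 UMI in the rest of the healthy set, and Nts without that cell had 1 UMI against 3. Igfbp5 had 35 of its 53 healthy UMIs in that cell and 13 in the second lymphatic-marker cell, against 11 UMIs at 2 weeks and 0 at 12 weeks, so without both cells it was too shallow to be called at either time.

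At 12 weeks the higher genes of this rule included Gstp1 (a glutathione transferase), Ccdc85b, AY036118 and 6 predicted genes. Gstp1, with 48 UMIs against 3, was 43.0-fold higher (13.8 to 216) in arterial and 30.4-fold in other ECs. Predicted genes of this kind can share reads with near-identical copies, so their counts are uncertain. On the lower side Igfbp7 (a secreted insulin-like growth factor binding protein of vessels) stood apart from other ECs, at 903.4, 2171 and 218.4 CPM with a 12-week ratio of 0.242 (0.14 to 0.39) against 0.95 (0.89 to 1.01). The heat shock gene Hspa1b had 3 UMIs against 88, a ratio of 0.0915 (0.019 to 0.28), with 0.256 in other ECs. Of 19 dissociation stress genes, 6 were lower at 12 weeks (Jund, Atf3, Socs3, Hspa1a, Hspa1b and Dnajb1), beside 5.83% of all genes, with a median log2 ratio of -0.79 in arterial and -0.65 in other ECs. In the thinned cells that median was -0.14 and the Jund ratio was 1.07. The part of dissociation in the other ratios was not tested.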

How the data were processed

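Non-CMs were measured in 1 library per phase with 10x Chromium 3' chemistry. The authors made UMI counts per gene and barcode with Cell Ranger 2.0.0 on mm10, and the deposited counts were used as raw counts for 27998 genes. Cells with at least 200 genes were kept (26 barcodes removed). Counts of arterial ECs were summed per library and divided by the summed UMIs (CPM, per 1000000 UMIs). Intervals are exact Poisson (levels), exact conditional binomial (ratios) and Clopper-Pearson (shares) at 95%, except the ratio of ratios, which used a normal interval on the log scale. They cover counting error only, and with 1 library per phase no p-value was computed. A call needed a 2-fold ratio, an interval excluding 1 and 20 UMIs over both libraries. List medians used log2 ratios with 1 CPM added. Against other ECs and between leaning cells, a call was a 2-fold ratio in each library. Named genes were the 10 per direction and comparison with the interval bound farthest from 1, the 15 with the highest smallest ratio over other ECs, 8 per direction between leaning cells, and list members. Members and the 22 lists (339 of 340 symbols matched, 5 by synonym) were chosen with earlier results of these data known. Analysis used Python 3.11.15, numpy 2.4.6, scipy 1.17.1, pandas 2.3.3, scanpy 1.11.5 (Scrublet) and matplotlib 3.10.9, and the scripts were tested on simulated data. Gene positions are from GENCODE (GRCm38) and promoters from RefSeq (GRCm38.p6). Some genes named by these rules are not reported here.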

Additional observations from a re-analysis of the deposited data

Results flagged for a closer look

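In 3 genes arterial ECs passed the 2-fold limit at 2 weeks in one direction and other ECs in the opposite one, and the difference was not tested. Acta2, the smooth muscle actin, had a ratio of 2.89 in arterial ECs (14 to 53 UMIs) and 0.132 in other ECs, but 48 of the 53 UMIs lay in 1 cell, which had 0 UMIs of Tagln and of Myh11, and without it the ratio was 0.28. Cpe (carboxypeptidase E) had a ratio of 4.4 against 0.309 in other ECs, with 15 of 23 UMIs in 1 cell and a ratio of 1.56 without it. Nov (a matricellular CCN protein) had a ratio of 9.18 (2.90 to 46.6) against 0.421 in other ECs. Opposite calls were also found at 12 weeks against 0, for 1 gene higher and 2 lower in arterial ECs. From 2 to 12 weeks they were found for 1 higher and 3 lower.

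Cells outside the EC rule also carried arterial rule genes. Of mural cells, 33.7% (140 of 415, 29.2 to 38.5) in the healthy library, 42.7% (32 of 75, 31.3 to 54.6) at 2 weeks and 33.3% (13 of 39, 19.1 to 50.2) at 12 weeks had at least 2 UMIs of Gja4, Gja5, Sema3g and Gkn3, against 0.431% of healthy FBs (5 of 1160). These cells took no part in the comparisons. Among the chosen arterial ECs, 13, 12 and 8 cells had a UMI of the mural marker set at 0, 2 and 12 weeks. The part of mural transcripts in the choice of cells was not tested.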

How the results depend on the processing

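Each result rests on 1 library per phase and at 12 weeks on 31 cells, so small changes were not detectable there. No paired analysis was possible because each phase had 1 library, and no replicate could be left out. Of 5915 gene ratios under the alternatives, 5647 stayed within their interval, 264 moved beyond it and 4 called ratios changed direction. These totals include alternatives that could not move a gene ratio. The filters on low counts do not enter a ratio, and leaving out doublets removed no arterial EC. Thinning to 1000 UMIs kept 107 results of all kinds, moved 127 and reversed 2, so the totals do not measure robustness to depth. Of 484 list medians, 472 stayed within 1.5-fold. Leaving out mitochondrial, ribosomal protein and haemoglobin genes from the scaling shifted the median of all genes by less than 0.1. Leaving out a gene's richest cell, the lymphatic-marker cells or the arteriole-leaning cells was chosen after seeing the data.

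Thinning each cell to 1000 UMIs, which left 21, 58 and 18 arterial ECs, moved most. The arterial share of ECs was then 3.47% at 0 and 5.95% at 2 weeks. The large-artery share of program UMIs was 63.9% at 2 and 73.8% at 12 weeks, that without the rule genes was 85% at 0 weeks, and 53.4% of cells leaned to the large-artery genes at 2 weeks. Higher and lower calls numbered 49 and 38 (2 weeks against 0), 12 and 18 (12 against 0), and 26 and 37 (12 against 2), with fewer cells compared. Median log2 ratios at 2 weeks were 2.17 for basement membrane, 1.26 for lipid uptake and 3.15 for capillary genes. At 12 weeks they were -0.19 for large-artery, -0.56 for flow-response and -0.14 for dissociation stress genes. Hsp90aa1 at 2 weeks (1.32) and Jund at 12 weeks (1.07) changed direction.

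With at least 3 rule UMIs, arterial shares were 5.12% and 5.39% at 0 and 2 weeks, the large-artery share was 81.8% at 0 weeks, and 90.4% and 74.7% of cells leaned to the large-artery genes at 0 and 2 weeks. With a rule without Gkn3 the healthy arterial share was 5.42% and the large-artery share 74.3%. With at least 50 UMIs, and so fewer genes, higher and lower calls were 112 and 64, 31 and 74, and 48 and 134 in the order above, and the capillary median at 12 weeks was -2.02. With no filter, lower calls at 2 weeks were 294, higher calls were 263 (12 against 0) and 269 (12 against 2), and medians were -1.70 for fibroblast genes at 2 weeks and 0.61 for elastic matrix, -1.87 for capillary and -0.15 for venous genes at 12 weeks. Without a gene's richest cell, lower calls at 2 weeks were 98, higher calls were 63 (12 against 0) and 71 (12 against 2), Acta2 at 2 weeks was 0.28 and Nts 2.21. In cells with no mural UMI the capillary median at 12 weeks was -2.35. Apart from the effect of fewer cells or genes, the cause was not tested.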

Other observations

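Of 11 interferon response genes deep enough at 2 weeks, 0 were called, beside 6.75% of all genes higher and 4.39% lower. All 11 were above their healthy level, with a median log2 ratio of 0.31 beside 0.07 over all genes. At 12 weeks 1 of 6 was called, with Ifi27 lower, beside 5.83% of all genes. Of the 3 gap junction genes deep enough, Gja4 and Gja5 belong to the rule, and Gja1 was not called, with ratios of 1.82 (1.14 to 3.00) at 2 weeks and 1.03 (0.44 to 2.21) at 12 weeks. Of 9 venous genes, 4 were called higher at 2 weeks (Vwf, Emcn, Cpe and Il6st), beside 6.75% of all genes and with a median log2 ratio of 1.01 beside 0.07, but Vwf and Cpe were not called without their richest cell. Of 6 at 12 weeks Vcam1 and Il6st were higher, beside 3.9% of all genes, with a median of 0.70 beside -0.03 (-0.15 for the list with no filter on low counts), and Il6st was at 1.84 without its richest cell, under the limit. The summed level of the 8 endocardial markers was 227, 200 and 138 CPM at 0, 2 and 12 weeks, with 4, 5 and 5 of them at 0 UMIs.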
